A study of Homo sapiens with 9 samples.

Results

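The gene ANO1 and 7 of its neighbours on band q13 of chromosome 11 (FADD, PPFIA1, CTTN, SHANK2, CCND1, MYEOV and FGF19) were followed through RNA-Seq libraries of A431 cells, to see whether ANO1 moved alone or together with the genes around it. These 8 genes are among the 58051 genes counted. ANO1 was chosen by its measured counts, which differed between p53 KO cells and the mutant p53 cells, so its own differences are given as a description without a test. The neighbours were taken by name and position. Of the 8 genes, 7 had counts and passed the filter on low counts, and FGF19 had no count in any library.

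A431 is a line of human epidermoid carcinoma cells whose endogenous p53 is mutant. The 3 groups of 3 libraries each were parental cells as they are (parental), a stable line transfected with an empty vector that keeps mutant p53 (Ctrl), and a stable knockout line made with a GFP CRISPR construct (p53 KO). All were kept in DMEM with 10% FBS, grown from single colonies and harvested 48 h after settling in wells, so a line may stand for 1 colony. The sources do not say whether the 3 libraries of a group came from separate cultures or colonies, and p-values then measure only the spread between these libraries. Poly(A) RNA was counted per gene, and the totals ranged from 19783778 to 29840452 counts.

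Band 11q13 is one of the segments most often amplified in squamous cancers of the head and neck and the oesophagus. The copied segment usually carries CCND1, the gene of cyclin D1, which drives cells out of G1 with CDK4 and CDK6, together with FADD, the adaptor that links death receptors to caspase-8, and CTTN, the gene of cortactin, which stabilizes branched actin at the cell edge. ANO1 encodes TMEM16A, a chloride channel of the plasma membrane that opens on a rise in calcium. PPFIA1 encodes liprin-alpha-1, a scaffold at focal adhesions, and SHANK2 a scaffold best known from excitatory synapses. FGF19 is a secreted growth factor that acts through FGFR4 and its co-receptor beta-Klotho, and MYEOV was named after its overexpression in myeloma. When a segment is gained or lost, the expressed genes on it tend to shift together. Copy number was not measured here.

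Along chromosome 11 of GRCh38 the genes lie within a short stretch, in the order MYEOV (69294151 to 69341682), CCND1 (69641156 to 69654474), FGF19 (69698238 to 69704022), ANO1 (69985907 to 70189530), FADD (70203296 to 70207390), PPFIA1 (70270690 to 70385312), CTTN (70398404 to 70436584) and SHANK2 (70467854 to 71252577). FGF19 and SHANK2 are on the minus strand and the other 6 on the plus strand. The 250 bases before the RefSeq start of ANO1, FADD and PPFIA1 are printed 5′ to 3′ from the plus strand of GRCh38.p14 as the 3 members matched in the RefSeq promoter table. Capitals mark the GC box GGGCGG or its reverse complement CCGCCC. The ANO1 stretch is chr11:69985657-69985906, the FADD stretch chr11:70203046-70203295 and the PPFIA1 stretch chr11:70270440-70270689.
ANO1: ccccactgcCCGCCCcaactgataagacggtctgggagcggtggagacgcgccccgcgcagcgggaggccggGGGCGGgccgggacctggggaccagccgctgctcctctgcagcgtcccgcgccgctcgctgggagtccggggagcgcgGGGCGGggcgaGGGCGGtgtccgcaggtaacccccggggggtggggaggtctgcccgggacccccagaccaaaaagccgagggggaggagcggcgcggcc
FADD: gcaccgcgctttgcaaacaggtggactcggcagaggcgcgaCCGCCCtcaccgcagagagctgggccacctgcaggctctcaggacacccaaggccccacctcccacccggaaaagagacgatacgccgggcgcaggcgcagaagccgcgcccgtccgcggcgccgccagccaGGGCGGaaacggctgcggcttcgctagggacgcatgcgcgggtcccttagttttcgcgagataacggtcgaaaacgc
PPFIA1: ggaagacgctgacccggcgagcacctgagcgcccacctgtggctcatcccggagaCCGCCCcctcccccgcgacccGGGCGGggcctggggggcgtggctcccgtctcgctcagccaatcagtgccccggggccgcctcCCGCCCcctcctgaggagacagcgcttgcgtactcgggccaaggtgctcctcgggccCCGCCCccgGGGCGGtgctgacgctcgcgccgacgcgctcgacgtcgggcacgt
All 3 were rich in G and C, at 78.0% for ANO1, 68.8% for FADD and 76.8% for PPFIA1, where the median of 35116 RefSeq promoters was 58.0%. GC boxes numbered 4 before ANO1, 2 before FADD and 5 before PPFIA1, and 42.6% of all promoters had at least 1 in this window. Neither the TATA box TATAAA (10.7% of promoters) nor the AP-1 site TGANTCA (6.57%) nor the p53 half-site (5.57%) was found in any of the 3 on either strand. The CCAAT box, searched as CCAAT, occurred once before PPFIA1 and is found in 32.0% of promoters. A match is only a run of letters, and the lack of one tells nothing about whether the factor binds.

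The balance between long and short genes differed within groups, with long genes lowest and short genes highest in 2 libraries. In Ctrl replicate 1, genes with at least 8000 exon bases were lower than in the other 2 Ctrl libraries (median log2 difference -0.26), and genes with at most 2000 exon bases were higher (0.36). p53 KO replicate 3 leaned the same way (-0.12 and 0.19). Ctrl replicate 3 (0.18 and -0.22) and Ctrl replicate 2 (0.10 and -0.11) stood the other way, each against a mean that includes Ctrl replicate 1. Of the neighbours, SHANK2 differed most in Ctrl replicate 1, at -1.14, followed by PPFIA1 at -0.59 and FADD at 0.32, whereas ANO1 was at -0.22. In p53 KO replicate 3, SHANK2 was at -0.73 and ANO1 at -0.02. The part of this imbalance in the results was not tested, and values without Ctrl replicate 1 and p53 KO replicate 3 are given below. Of 8 markers of squamous epithelium, 7 had at least 100 counts in every library, while KRT14 had at most 13. Their summed level, mostly EGFR, was 16094 to 19319 CPM (counts per 1000000 counts of the library, scaled by the TMM method) in parental, 14981 to 15745 in p53 KO and 10483 to 13000 in Ctrl libraries, and its part in the results was not tested. Of 6 markers of other cells, 4 had at most 10 counts everywhere, PTPRC and DES had none, and the sum of the 6 was at most 4.50 CPM. COL1A1 made up most of that sum, with 47 to 114 counts per library (2.33 to 4.36 CPM), and PECAM1 had 1 to 13 counts.

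**Figure D1:**
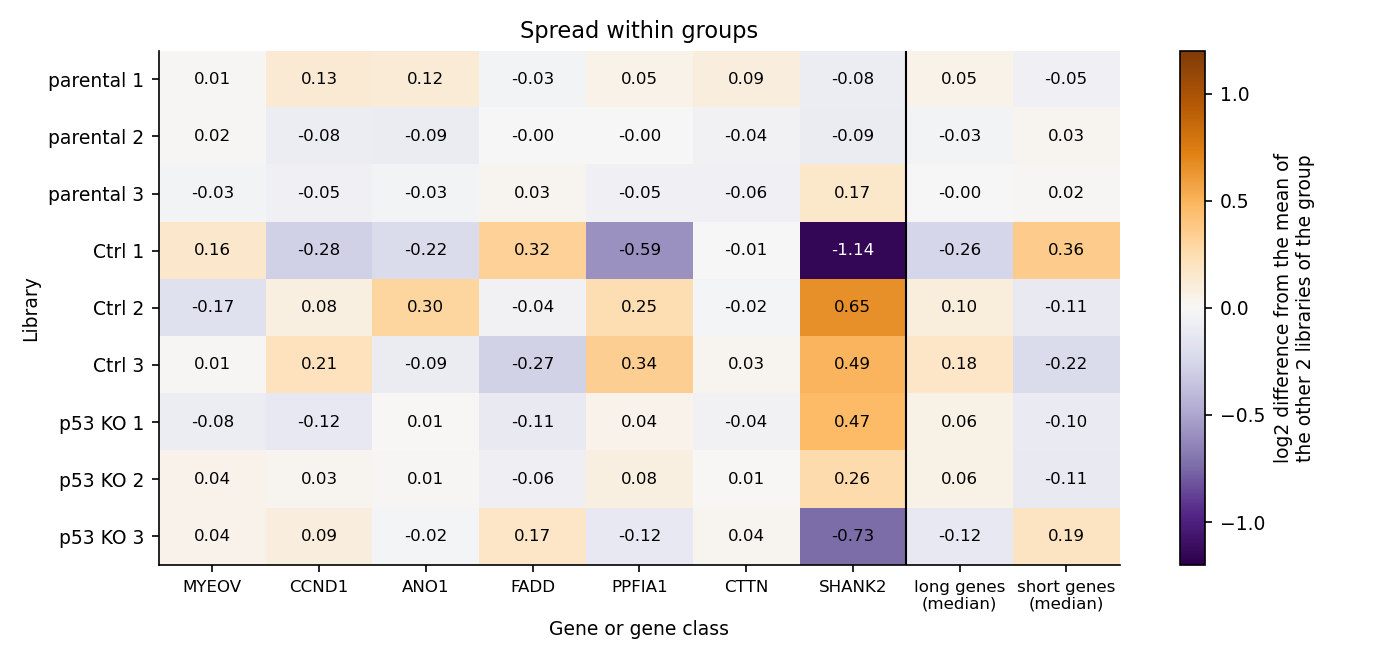
Each cell gives the log2 difference between 1 library (rows) and the mean of the other 2 libraries of its group, for the 7 members with counts and, right of the line, the median over 2654 long genes (at least 8000 exon bases) and 721 short genes (at most 2000). Ctrl 1 and p53 KO 3 show low SHANK2 (-1.14 and -0.73) beside low long genes and high short genes, whereas ANO1 differs from its group by at most 0.30 in any library.

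ANO1, the calcium-activated chloride channel, was high in p53 KO cells and low in Ctrl cells, with parental cells between them. The parental libraries held 2258, 2043 and 1749 counts of ANO1, or 86.4, 78.6 and 80.7 CPM. In p53 KO libraries the counts were 6626, 5858 and 4413, or 222, 223 and 219 CPM, and in Ctrl libraries they were 248, 459 and 353, or 12.6, 16.1 and 13.5 CPM. The 3 groups did not overlap, and the spread within each was small beside the distance between them. Libraries failed to overlap for 47.4% of all genes tested in p53 KO against parental, 40.4% in p53 KO against Ctrl and 43.9% in Ctrl against parental. These shares also stand beside each later statement that the libraries of 2 groups lay apart. Fitted log2 fold changes of ANO1 were 1.43 (standard error 0.09) in p53 KO against parental, 3.97 (0.10) in p53 KO against Ctrl and -2.54 (0.09) in Ctrl against parental, or 2.70-fold, 15.7-fold and 0.172-fold. Against parental cells, the change was larger in size in Ctrl cells, which keep mutant p53, than in p53 KO cells. Because RNA was taken from whole cultures, a change in the share of cells that express ANO1 and a change of its RNA per cell cannot be told apart.

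**Figure D2:**
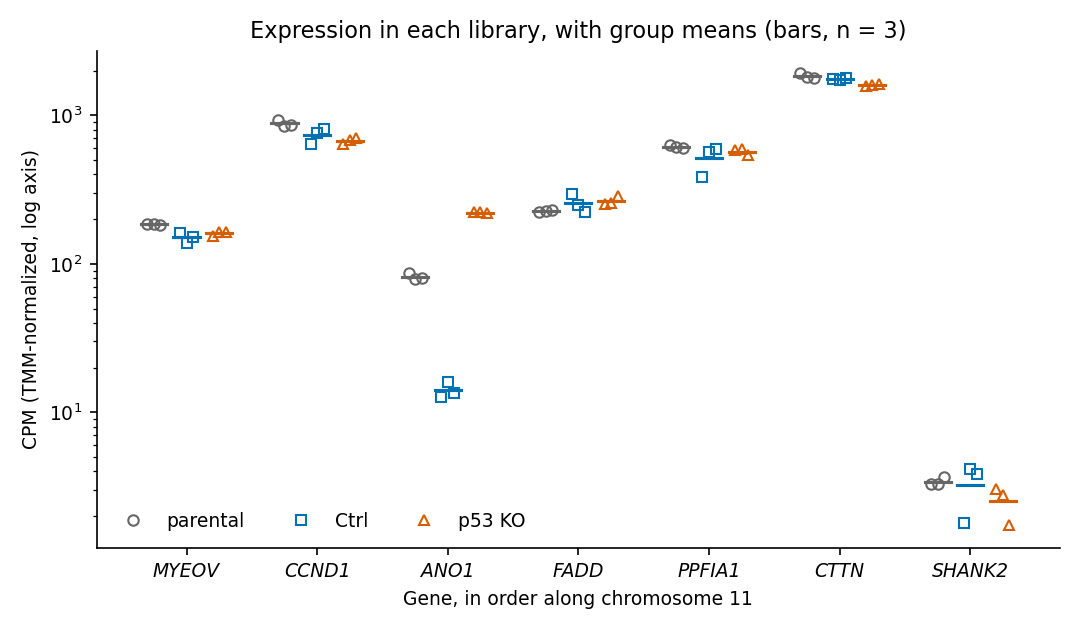
Each point is 1 library, with CPM on a log axis, for the 7 members with counts in their order along chromosome 11, and bars are group means of 3 libraries. ANO1 separates the groups, at 12.6 to 16.1 CPM in Ctrl, 78.6 to 86.4 in parental and 219 to 223 in p53 KO libraries, while the 3 groups lie close together for each neighbour.

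Among all 14513 genes tested, 321 (2.21%) had a larger change in size than ANO1 in p53 KO against parental, 105 (0.723%) in p53 KO against Ctrl and 103 (0.710%) in Ctrl against parental. These ranks describe the gene that was chosen for them. Of the other 167 tested genes within 5 Mb, 3 changed by more than ANO1 in p53 KO against parental, and none did in p53 KO against Ctrl or in Ctrl against parental. The largest change among these 167 genes was 1.69 in size, for CST6, in p53 KO against parental, 1.64, also for CST6, in p53 KO against Ctrl, and 2.13, for FOLR1, in Ctrl against parental.

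Genes annotated inside ANO1 or across it added little. Of 7 such genes, 4 had no count, and the most in any library was 3 counts, for the antisense RNA ANO1-AS1.

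FADD, which starts just beyond the 3′ end of ANO1, carried 225, 228 and 232 CPM in parental, 253, 259 and 288 in p53 KO and 296, 250 and 225 in Ctrl libraries. All p53 KO libraries lay above all parental ones, and the Ctrl libraries overlapped both. The log2 fold change was 0.22 (95% interval 0.01 to 0.44) against parental and 0.05 (-0.16 to 0.26) against Ctrl, and it was 0.17 (-0.04 to 0.38) in Ctrl against parental. None passed the quasi-likelihood test of edgeR after Benjamini-Hochberg adjustment across the genes tested (adjusted p = 0.136, 0.730 and 0.213). Leaving out Ctrl replicate 1 gave an adjusted p of 0.0135 for FADD in p53 KO against parental, at a log2 fold change of 0.22. The edgeR fit of only the p53 KO and parental libraries also gave 0.22 (adjusted p = 0.0120). Without Ctrl replicate 3, the value in Ctrl against parental was 0.26 (edgeR adjusted p = 0.0491).

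PPFIA1, the liprin gene, lay at 629, 613 and 600 CPM in parental, 581, 590 and 539 in p53 KO and 387, 569 and 595 in Ctrl libraries. Ctrl replicate 1 was the outlying value, and the other Ctrl libraries fell in the range of p53 KO libraries or just above it. Its log2 fold changes were -0.11 (-0.40 to 0.18), 0.14 (-0.15 to 0.43) and -0.25 (-0.54 to 0.04) in p53 KO against parental, in p53 KO against Ctrl and in Ctrl against parental, with edgeR adjusted p of 0.620, 0.464 and 0.188. Without Ctrl replicate 1, the value against Ctrl turned from 0.14 to -0.03.

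CTTN was the most abundant of these genes. Parental libraries held 1919, 1807 and 1792 CPM of this actin regulator, Ctrl libraries 1756, 1744 and 1786, and p53 KO libraries 1573, 1609 and 1631. Each p53 KO library lay below every other library, where 47.4% and 40.4% of all genes tested did not overlap against parental and against Ctrl. The log2 fold change of -0.20 (-0.32 to -0.07) in p53 KO against parental passed edgeR's test (adjusted p = 0.0373), the change of -0.14 (-0.26 to -0.01) against Ctrl did not (adjusted p = 0.105), and Ctrl and parental cells differed by -0.06 (-0.19 to 0.07, adjusted p = 0.447). The call against parental did not survive leaving out parental replicate 1, 2 or 3, p53 KO replicate 1, 2 or 3, or Ctrl replicate 2, with edgeR adjusted p of 0.0525 to 0.149, although CTTN stayed between -0.17 and -0.22 in all 9 fits that left out 1 library.

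SHANK2 had the fewest counts of the members detected, with 80 to 86 counts in parental, 35 to 91 in p53 KO and 35 to 118 in Ctrl libraries, or 3.29, 3.27 and 3.69 CPM, then 3.05, 2.78 and 1.74, then 1.78, 4.14 and 3.85. Its lowest values were in Ctrl replicate 1 and p53 KO replicate 3, the libraries low in long genes. At this depth the intervals were wide: the log2 fold change was -0.41 (-1.02 to 0.21) against parental and -0.38 (-0.99 to 0.23) against Ctrl, with edgeR adjusted p of 0.346 and 0.345. Ctrl against parental gave -0.03 (-0.62 to 0.56, adjusted p = 0.944). With Ctrl replicate 1 left out, SHANK2 was at -0.63 against Ctrl (edgeR adjusted p = 0.0189).

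CCND1, on the other side of ANO1, was highest in parental cells. Values were 935, 852 and 863 CPM in parental, 637, 683 and 704 in p53 KO and 644, 760 and 809 in Ctrl libraries. The parental libraries lay above all others, and the p53 KO and Ctrl libraries overlapped. Cyclin D1 RNA fell in p53 KO against parental cells, at -0.39 on the log2 scale (-0.58 to -0.20, edgeR adjusted p = 0.0107). This call was lost without parental replicate 1 or p53 KO replicate 1 (adjusted p = 0.0530 and 0.0527). It was at -0.13 (-0.32 to 0.06, adjusted p = 0.306) against Ctrl and at -0.26 (-0.45 to -0.07, adjusted p = 0.0579) in Ctrl against parental. Without Ctrl replicate 1 the value against Ctrl was -0.22 (adjusted p = 0.0163), and without Ctrl replicate 3 the value in Ctrl against parental was -0.33 (adjusted p = 0.0216).

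MYEOV, the member farthest before ANO1, lay at 186, 186 and 182 CPM in parental, 155, 164 and 164 in p53 KO and 162, 139 and 151 in Ctrl libraries. Parental libraries were again the highest, with the others mixed. It fell in Ctrl against parental, with a log2 fold change of -0.29 (-0.45 to -0.14, edgeR adjusted p = 0.0158), a call that was lost without parental replicate 1 or 2 or Ctrl replicate 2 (adjusted p = 0.0624, 0.0564 and 0.0603). In p53 KO cells it was at -0.20 (-0.35 to -0.04, adjusted p = 0.0783) against parental and at 0.10 (-0.06 to 0.25, adjusted p = 0.345) against Ctrl. Without Ctrl replicate 1 the value of -0.20 against parental passed (adjusted p = 0.0130).

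FGF19 was listed at 0 in all 9 libraries. A count of 0 allows up to 3 counts, or 0.101 to 0.152 CPM before scaling in these libraries, for counting error only. FGF3 and FGF4, which lie beside FGF19, were also at 0.

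**Figure D3:**
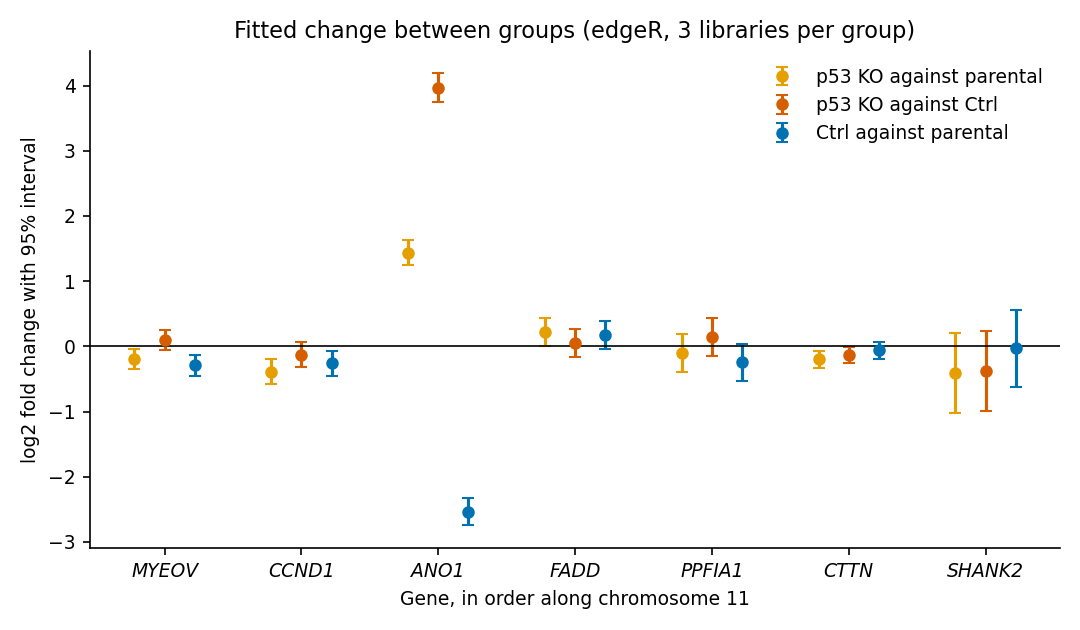
Points are fitted log2 fold changes with 95% intervals for the 7 members with counts, in 3 comparisons of 3 libraries against 3. ANO1 stands at 3.97, 1.43 and -2.54, and the 6 neighbours lie between -0.41 and 0.22 in all 3 comparisons.

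Over the 6 neighbours that could be tested, 2 fell and none rose in p53 KO against parental (CTTN and CCND1), none was called in p53 KO against Ctrl, and 1 fell in Ctrl against parental (MYEOV). Over all genes tested, 18.1%, 29.2% and 20.3% were called at an adjusted p of at most 0.05 in these comparisons. Past a log2 fold change of 1.5 in size, none of the 6 neighbours was called in any comparison, and 1.95%, 3.29% and 1.94% of all genes were. Median log2 fold changes of the neighbours were -0.20, -0.04 and -0.15, beside 0.01, 0.01 and 0.00 over all genes. The largest change in size among them was 0.41, 0.38 and 0.29, where ANO1 changed by 1.43, 3.97 and 2.54. In p53 KO against Ctrl, 1 neighbour had an unadjusted p under 0.05 in edgeR's test, and DESeq2 also called 0. With Ctrl replicate 1 and p53 KO replicate 3 both left out, 4, 3 and 2 neighbours were called, and ANO1 stood at 1.44, 3.91 and -2.47. Calls over all genes also rose in that fit, to 4520, 5583 and 4180 of 14663 genes tested, from 2631, 4240 and 2943 of 14513. Of the 4 called against parental in that fit, FADD rose with ANO1, at 0.16 on the log2 scale (edgeR adjusted p = 0.0314). CTTN (-0.21), CCND1 (-0.42) and MYEOV (-0.21) fell. The 3 called against Ctrl in that fit were CTTN at -0.15, SHANK2 at -0.45 and CCND1 at -0.25 on the log2 scale, all in the direction opposite to ANO1. Signs in the main fit varied by comparison. In Ctrl against parental, MYEOV (-0.29, called), CCND1 (-0.26), PPFIA1 (-0.25), CTTN (-0.06) and SHANK2 (-0.03) shared the sign of ANO1, and FADD (0.17) did not. In p53 KO against parental, only FADD (0.22) shared it. In p53 KO against Ctrl, FADD (0.05), PPFIA1 (0.14) and MYEOV (0.10) did.

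The counts of ANO1 were set against those of its neighbours within single libraries, with no scaling between them. ANO1 was chosen by these same counts, so the shares describe the same difference again and are no further support. Counts of ANO1 were 2.22%, 2.13% and 2.20% of the summed counts of the 6 neighbours in parental libraries. They were 6.94%, 6.74% and 6.58% in p53 KO libraries and 0.390%, 0.465% and 0.377% in Ctrl libraries. The mean share in p53 KO was 3.10 times that in parental and 16.4 times that in Ctrl cells. The summed level of the neighbours themselves was 3672 to 3897 CPM in parental, 3203 to 3328 in p53 KO and 3246 to 3570 in Ctrl libraries, so that p53 KO and Ctrl overlapped and parental lay above both. Against FADD, the closest neighbour, there were 34.5 to 38.4 ANO1 counts per 100 FADD counts in parental, 76.1 to 88.0 in p53 KO and 4.27 to 6.45 in Ctrl libraries.

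**Figure D4:**
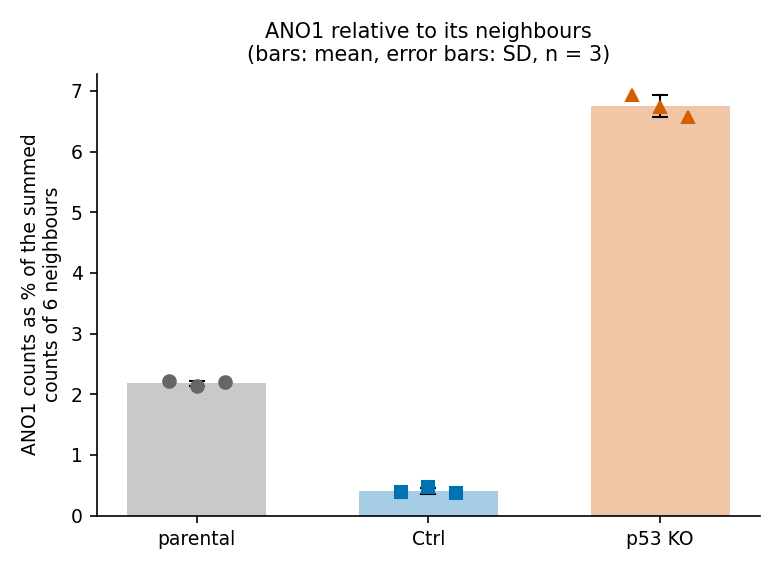
Bars are the mean percentage of ANO1 counts relative to the summed counts of the 6 neighbours, error bars are SD over 3 libraries and points are single libraries. The share was 2.13 to 2.22% in parental, 0.377 to 0.465% in Ctrl and 6.58 to 6.94% in p53 KO libraries.

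Levels were compared between genes as CPM per kb of exon. In parental cells the order was CTTN (265), CCND1 (186), FADD (134), MYEOV (69.6), PPFIA1 (52.4), ANO1 (13.1) and SHANK2 (0.181), and the libraries of adjoining genes in this order did not overlap. ANO1 kept the sixth place in all 3 groups, at 2.25 CPM per kb in Ctrl and 35.3 in p53 KO cells, so that even at its highest it lay below PPFIA1 (48.7). FADD and CCND1 overlapped in Ctrl cells (150 and 155) and nearly met in p53 KO cells (156 and 142).

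Widening the view to 2 Mb on each side took in 121 annotated genes besides ANO1, of which 35 were tested. Of these, 7 were called in p53 KO against parental (4 up and 3 down), 3 in p53 KO against Ctrl (all down) and 7 in Ctrl against parental (6 up and 1 down). The shares of 20%, 8.57% and 20% stand beside 18.1%, 29.2% and 20.3% over all genes, and the medians were -0.05, -0.07 and 0.04. With Ctrl replicate 1 and p53 KO replicate 3 left out, 10, 11 and 9 were called, beside 4520, 5583 and 4180 of all 14663 genes tested. The other 86 genes were untested, 55 of them without a count and none with more than 12 counts in a library.

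CPT1A, the enzyme that lets long fatty acids into mitochondria, rose in p53 KO against parental by 0.88 on the log2 scale (SE 0.09, edgeR adjusted p = 0.000138) and in Ctrl against parental by 0.62 (SE 0.09, adjusted p = 0.00117). Its counts were 820, 689 and 604 in parental, 1526, 1493 and 997 in p53 KO and 821, 1221 and 1236 in Ctrl libraries. ALDH3B1, an aldehyde dehydrogenase, likewise rose in both, by 0.75 (SE 0.11) and 0.78 (SE 0.11), with edgeR adjusted p of 0.000754 and 0.000681. Both comparisons use the same parental libraries. MRPL21, a protein of the mitochondrial ribosome, rose in p53 KO against parental by 0.54 (SE 0.11, adjusted p = 0.00662), and RP11-849H4.2 fell (log2 fold change -0.77, SE 0.24, adjusted p = 0.0444) on 13 to 36 counts per library. None of these 4 was called in p53 KO against Ctrl, where their log2 fold changes were 0.26, -0.03, 0.22 and -0.54 for CPT1A, ALDH3B1, MRPL21 and RP11-849H4.2.

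In p53 KO against Ctrl, the 3 genes that fell were LRTOMT (-0.70, SE 0.13, edgeR adjusted p = 0.00164), the WNT co-receptor LRP5 (-0.34, SE 0.08, adjusted p = 0.00674) and the spindle protein NUMA1 (-0.25, SE 0.07, adjusted p = 0.0204). LRTOMT rose in Ctrl against parental by 0.68 (SE 0.13, adjusted p = 0.00406), as did NDUFS8, a subunit of respiratory complex I, by 0.58 (SE 0.16, adjusted p = 0.0261). No called gene in this window moved in the direction of ANO1 in p53 KO against Ctrl, and the highest log2 fold change there was 0.27.

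**Figure D5:**
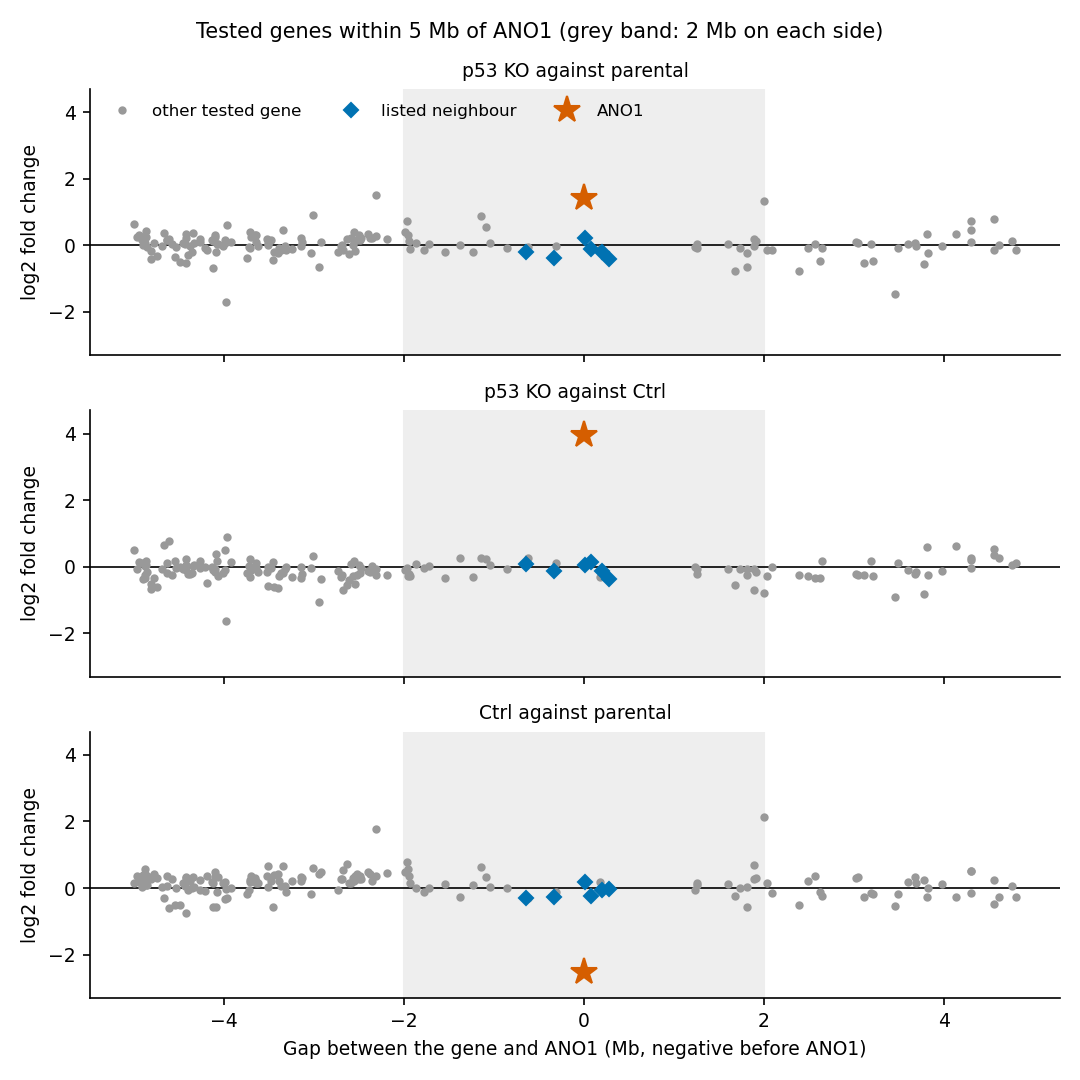
Each point is 1 of the tested genes within 5 Mb of ANO1, by its gap from ANO1 on the x axis (Mb) and its fitted log2 fold change on the y axis, with a panel per comparison. ANO1 (star) lies at 1.43, 3.97 and -2.54, the listed neighbours (diamonds) lie near 0, and the other genes within 5 Mb reach at most 1.69, 1.64 and 2.13 in size.

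Some genes overlap others on the map. The ends of CCND1 and ORAOV1 overlap on opposite strands, AP000487.5 lies opposite the end of PPFIA1 and the start of CTTN, RP11-805J14.5 lies opposite FADD, and RP11-211G23.2 shares its strand with MYEOV. The library kit keeps the strand of the RNA, but the setting used in counting is not given in the sources used here, so reads in these overlaps may be split or left out. ORAOV1 itself was at 0.00, 0.12 and -0.13 on the log2 scale in the 3 comparisons and was called in none.

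The genes that work with each member were taken as 8 lists of 86 genes, of which 61 were tested. Counts of called genes follow the order used above (p53 KO against parental, then p53 KO against Ctrl, then Ctrl against parental) and stand beside 18.1%, 29.2% and 20.3% over all genes, whose medians were 0.01, 0.01 and 0.00.

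Of the other anoctamins, the family of ANO1, 4 of 9 were tested (ANO6, ANO8, ANO9 and ANO10) and 1, 0 and 0 were called, with median log2 fold changes of -0.25, -0.18 and -0.22. ANO9 fell in p53 KO against parental (log2 fold change -0.70, SE 0.16, edgeR adjusted p = 0.0106). ANO6, a lipid scramblase and the most abundant of them, was at -0.29 (-0.63 to 0.06) and 0.02 (-0.33 to 0.36) in p53 KO against parental and Ctrl. For the counts of 0, unadjusted p was under 0.05 for 1 and 2 of the 4 genes, and DESeq2 called 0 in both.

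Of genes for chloride transport and for the ERM proteins that anchor channels to actin, 14 of 18 were tested and 4, 5 and 3 were called (medians 0.01, 0.07 and -0.16). CLCA2, a regulator of calcium-activated chloride current, was the largest: its counts were 16, 13 and 10 in parental, 68, 54 and 38 in p53 KO and 5, 14 and 11 in Ctrl libraries. The p53 KO libraries lay above all others, with log2 fold changes of 1.97 (SE 0.22) against parental and 2.36 (SE 0.24, edgeR adjusted p = 3.54e-05) against Ctrl, on low counts. LRRC8C, a subunit of the volume-regulated anion channel, rose by 1.49 (SE 0.13, adjusted p = 1.21e-05) against Ctrl and by 0.41 (SE 0.12) against parental, and fell (log2 fold change -1.08, SE 0.13) in Ctrl against parental. Its level was 6.64 to 7.31 CPM in parental, 8.69 to 10.1 in p53 KO and 2.91 to 3.85 in Ctrl libraries, without overlap and in the same order of groups as ANO1. EZR, the gene of ezrin, rose by 0.63 (SE 0.07, adjusted p = 5.98e-05) against Ctrl. EZR was at 1064 to 1153 CPM in parental, 927 to 1015 in Ctrl and 1444 to 1602 in p53 KO libraries. The cystic fibrosis channel gene CFTR had no count.

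Of 9 genes of death receptor signalling with FADD, all were tested and 3, 5 and 3 were called (medians 0.15, 0.25 and -0.18). The receptors FAS and TNFRSF10A rose in p53 KO against Ctrl, by 0.89 (SE 0.10, edgeR adjusted p = 6.78e-05) and 0.79 (SE 0.10, adjusted p = 0.000151), and the adaptor TRADD fell (log2 fold change -0.65, SE 0.12, adjusted p = 0.00203). FAS was at 15.3 to 19.0 CPM in parental and 25.4 to 27.0 in p53 KO libraries, and TNFRSF10A at 26.3 to 28.1 and 36.1 to 39.4. CASP8, the protease that FADD recruits, was at 0.08 (-0.11 to 0.26), 0.03 (-0.16 to 0.21) and 0.05 (-0.13 to 0.24).

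Of 14 genes of the cyclin D axis, 11 were tested and 2, 4 and 5 were called (medians 0.14, 0.07 and -0.06). CDK6, a partner of cyclin D1, rose in p53 KO against Ctrl by 1.13 (SE 0.25, edgeR adjusted p = 0.00543). It is a long transcript and had 588 counts in Ctrl replicate 1 against 1707 and 1801 in the other Ctrl libraries. The inhibitor gene CDKN1A rose in p53 KO against Ctrl by 1.01 (SE 0.14, adjusted p = 0.000357) on 76 to 225 counts per library, and CDKN2D rose in Ctrl against parental by 0.49 (SE 0.14, adjusted p = 0.0314). CDKN1A was at 4.54 to 5.63 CPM in parental, 3.13 to 3.88 in Ctrl and 6.20 to 8.04 in p53 KO libraries. CDK4 was at 0.14 (-0.09 to 0.36), -0.13 (-0.35 to 0.09) and 0.26 (0.04 to 0.49), and it was not called.

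Around CTTN, 10 of 12 genes of the Arp2/3 complex and its activators were tested and 0, 3 and 1 were called (medians -0.02, -0.12 and 0.12). WASL, which activates the complex, fell in p53 KO against Ctrl (log2 fold change -0.57, SE 0.17, edgeR adjusted p = 0.0241), and the subunit ARPC5 fell (log2 fold change -0.24, SE 0.07, adjusted p = 0.0258). WASL was at 53.4 CPM in Ctrl replicate 1 against 82.2 and 90.9 in the other Ctrl libraries. Ctrl replicate 1 thus overlapped the p53 KO libraries (43.3 to 54.7, the lowest in replicate 3). ARPC2 rose in Ctrl against parental by 0.25 (SE 0.08, adjusted p = 0.0450). For the count of 0, unadjusted p was under 0.05 for 2 genes and DESeq2 called 0. Of 8 liprins and LAR phosphatases, 6 were tested and 1, 1 and 1 were called (medians -0.27, -0.09 and -0.14). PTPRS fell in p53 KO against Ctrl (log2 fold change -0.52, SE 0.11, adjusted p = 0.00412), and PPFIBP2 rose in Ctrl against parental by 0.66 (SE 0.17, adjusted p = 0.0201).

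The SHANK scaffold list had 5 of 9 genes tested and 2, 2 and 2 called (medians -0.22, -0.11 and -0.20). SHANK3, the relative of SHANK2, had 16.3 to 18.5 CPM in parental, 8.19 to 8.52 in p53 KO and 7.55 to 9.53 in Ctrl libraries. It fell in p53 KO against parental (log2 fold change -1.08, SE 0.10, edgeR adjusted p = 6.76e-05), as did DLGAP4 (log2 fold change -0.31, SE 0.07, adjusted p = 0.0137), and HOMER3 rose in Ctrl against parental by 0.33 (SE 0.10, adjusted p = 0.0451). For SHANK3, all Ctrl libraries also lay below all parental ones, so its lower level was not particular to p53 KO cells. On the FGF19 list, 2 of 7 genes were tested, FGFR2 and FGFR4, and 2, 1 and 2 were called (medians -0.38, 0.41 and -0.79). FGFR2 fell in Ctrl against parental (log2 fold change -1.06, SE 0.11, adjusted p = 8.82e-05) and FGFR4, the receptor of FGF19, (log2 fold change -0.51, SE 0.12, adjusted p = 0.0165). The co-receptor KLB had no count. Of all 14663 genes tested without Ctrl replicate 1 and p53 KO replicate 3, 4520, 5583 and 4180 were called. Without Ctrl replicate 1 and p53 KO replicate 3, the counts over the 8 lists, in the order given here, were 2, 1 and 2 for anoctamins, 7, 7 and 5 for chloride transport, 3, 7 and 4 for death receptors, 5, 5 and 6 for the cyclin D axis, 2, 4 and 2 for Arp2/3, 3, 1 and 2 for liprins, 2, 2 and 3 for SHANK scaffolds and 2, 1 and 2 for FGF19.

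Genes with a pattern like that of ANO1 were looked for by Pearson's r of log2 CPM over the 9 libraries, which share their groups, depth and preparation, so that r is a description. The closest of 14512 genes were PRSS23 (r = 0.999), OLFML2A (0.996), AC079466.1 (0.996), TRIB2 (0.996) and MICB (0.995). They lie on chromosomes 11, 9, 19, 2 and 6. In Ctrl libraries, OLFML2A had only 7 to 13 counts, AC079466.1 3 to 7 and TRIB2 6 to 10. Log2 fold changes of these closest genes in p53 KO against Ctrl ran from 1.02 (MICB) to 10.2 (AC079466.1). A high r thus describes a shared pattern over the groups and not a shared size of change. PRSS23 shares chromosome 11 with ANO1 but is not among the 167 tested genes within 5 Mb of it. PRSS23, a secreted serine protease, was at 35.2 to 37.6 CPM in parental, 53.9 to 56.3 in p53 KO and 15.8 to 17.0 in Ctrl libraries. The most opposite were B4GALT4 (-0.996) and MRPL3 (-0.992), both on chromosome 3. None of the neighbours came near these values. PPFIA1 had the highest r with ANO1, 0.434, and the ranks of the 6 ran from 4283 for PPFIA1 to 11052 for CTTN, whose r was -0.511. MYEOV was at 0.409, FADD at 0.0518, CCND1 at -0.121 and SHANK2 at -0.213.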

How the data were processed

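Cells, groups and libraries are as given above. The authors aligned 75-base paired reads from poly(A) RNA to GRCh38 with STAR 2.5.1b after FastQC, and featureCounts assigned them to genes of Ensembl release 85. They deposited raw counts per gene for the 9 libraries without normalization. The strand setting is not given in the sources used here. Members were found by the symbol that follows the gene ID, and 0 columns of other samples were present.

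The analysis used edgeR 4.0.16 in R 4.3.3. Genes were filtered with filterByExpr by group (minimum count 10), which left 14513 genes, and scaled by TMM. All 9 libraries were fitted with 1 mean per group, groups were compared by the quasi-likelihood test, and p-values were adjusted over all genes tested by the Benjamini-Hochberg method. A gene was called at an adjusted p of at most 0.05. Standard errors and 95% intervals come from the F statistic of that test, so intervals cover the spread between libraries. Intervals and floors of 3 counts for a count of 0 otherwise cover counting error only. The fit was tested on simulated data, where all 200 genes given a log2 change of 2 were recovered. Changes as small as those of the neighbours and the imbalance by gene length were not simulated, so this says nothing about such calls. Pearson's r used log2 CPM with a prior count of 1. Positions, exon lengths and the 2 Mb window are those of GENCODE release 44, which held 14397 of the tested genes. Promoter sequences are from RefSeq (GRCh38.p14), which matched 3 of the 8 members. MYEOV, CCND1, FGF19, CTTN and SHANK2 were not matched.

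The text names the 8 members, up to 4 called genes with the largest change in the 2 Mb window per comparison, up to 3 called genes per list, the genes most and least like ANO1 and the markers. Some genes that the rule covers are not reported here. Genes named in addition (CST6, FOLR1, ANO1-AS1, the overlapping genes, and others given as not called or not counted) were picked once their values had been seen. The members, lists and window were chosen with earlier results of these data known. Alternatives were DESeq2 1.42.0, its size factors, 2 other filters, the replicate number as a block, fits of 2 groups, other windows and thresholds, and each library left out. A fit without 2 libraries was added after seeing the data. limma 3.58.1 was loaded by edgeR, and figures were drawn with matplotlib 3.10.9. No sample was left out of the main results.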

Additional observations from a re-analysis of the deposited data

Results flagged for a closer look

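ANO1 moved in opposite directions in the 2 derived lines. All 3 p53 KO libraries lay above all parental libraries and all 3 Ctrl libraries lay below them, and the log2 fold change between p53 KO and Ctrl was 3.97. The difference between the changes was not tested, because ANO1 was chosen for its values in these libraries.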

How the results depend on the processing

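ANO1 kept its direction in all 16 alternative fits, with log2 fold changes of 1.40 to 1.47 in p53 KO against parental, 3.90 to 4.08 in p53 KO against Ctrl and -2.65 to -2.47 in Ctrl against parental. No neighbour exceeded 0.63 in size in any of them (SHANK2), and CCND1 reached -0.42. In what follows, counts of calls are given for p53 KO against parental, then p53 KO against Ctrl, then Ctrl against parental. The neighbours called were 2, 0 and 1. They became 1, 0 and 3 with no filter beyond 1 count, 4, 0 and 1 in fits of only the 2 groups compared, 3, 0 and 2 with DESeq2, 4, 3 and 2 with Ctrl replicate 1 and p53 KO replicate 3 both left out (chosen after seeing the data), and 0, 0 and 0 past a log2 fold change of 1.5. Over all genes, 2964, 4446 and 3459 of 14513 were called with DESeq2, and 4520, 5583 and 4180 of 14663 with both libraries left out. For fits of 2 groups, with no filter beyond 1 count or without 1 library, calls over all genes are not given here. Counts of neighbours from those fits have no share over all genes beside them, so no result about the neighbours is drawn from them. Leaving out 1 library gave 0 to 4, 0 to 2 and 0 to 3 neighbours called. The first count was 0 without parental replicate 1 or p53 KO replicate 1, and 4 without Ctrl replicate 1, which also gave the 2. The last was 0 without parental replicate 1 or 2 or Ctrl replicate 2, and 3 without Ctrl replicate 3. Ctrl libraries enter p53 KO against parental only through the filter, the scaling, the spread shared by the groups and the adjustment over all genes. The cause of these shifts was not tested.

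Within 2 Mb, 7, 3 and 7 genes were called. The counts were 2, 0 and 1 of 10 tested genes within 1 Mb, and 20, 30 and 30 of 167 within 5 Mb. The shares were 20%, 0% and 10%, then 12.0%, 18.0% and 18.0%, beside 18.1%, 29.2% and 20.3% over all genes. Past a log2 fold change of 1.5, 0, 0 and 0 genes within 2 Mb were called, and 14, 3 and 6 in fits of 2 groups. With no filter beyond 1 count, where 66 genes of the window were tested, 7, 3 and 12 were called. With both libraries left out, the counts were 10, 11 and 9. Again, fits of 2 groups, with no filter beyond 1 count or without 1 library have no share over all genes beside them. Leaving out 1 library gave 3 to 13, 2 to 6 and 4 to 12. The highest of these came without Ctrl replicate 1 (13), Ctrl replicate 1 or 3 (6) and Ctrl replicate 3 (12), and the lowest without parental replicate 1 or p53 KO replicate 1 (3) and without parental replicate 1 (4). Signs turned for FADD in p53 KO against Ctrl without p53 KO replicate 3 (-0.0047) or Ctrl replicate 3 (-0.042, with 0.16 as the highest such value), for PPFIA1 in the same comparison without Ctrl replicate 1 (-0.030, the highest being 0.25), and for SHANK2 in Ctrl against parental without parental replicate 3 (0.023), without Ctrl replicate 1 (0.23, the lowest being -0.23) and with both libraries left out (0.23). None of these passed the test before or after.

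The libraries of different groups share replicate numbers, and these did not pair them. Deviations from the group means correlated at -0.318 to 0.0390 in 9 pairs with the same number and at -0.200 to 0.363 in 18 pairs with different numbers, and 0 of 9 libraries correlated best with its own number. With the replicate number as a block, 1, 0 and 0 neighbours and 5, 2 and 4 genes within 2 Mb were called, and the calls over all genes went from 2631 to 1757, 4240 to 3406 and 2943 to 1691. Depth limits SHANK2, with 35 to 118 counts per library, and FGF19, with none.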
